A study of Mus musculus with 9 samples.

Results

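NAT, a small molecule under study in neural cultures, was compared with its vehicle DMSO across all genes that the cultures expressed. The genes were chosen by level and not by response: a gene entered when its abundance was at least 1 TPM (a transcript abundance: reads divided by transcript length and scaled to the same sum in every library) in at least 3 of the 6 libraries. By that rule 13613 of the 23420 gene rows were kept, and 33 of them passed through the libraries of 1 group only. The cells were neural stem cells dissociated from the hippocampus of 2-day-old wild type C57BL/6J mice and grown in culture. Both groups were then moved to a differentiation medium lacking the growth factors bFGF and EGF, so the vehicle cells were differentiating as well. One group received 3 µM NAT and the other DMSO, with 3 libraries each, and a further group of 3 libraries received 3 µM P7C3-A20 and served here only to estimate the spread between libraries. The structure of NAT is not given in the sources used here.

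Neural stem cells of the hippocampus divide while bFGF and EGF are present and, once these are withdrawn, leave the cell cycle and turn towards astrocytes, oligodendrocytes or neurons. Immediate early genes answer growth factor and calcium signals within minutes, and their induction needs no new protein synthesis. Ribosomal protein genes are among the most abundant transcripts of a growing cell, and replication genes are switched on by E2F factors as a cell enters S phase.

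The 6 libraries held between 12028821 and 14109316 reads, recovered from the steps of 1 read in the TPM values. Progenitor and glial markers were present throughout. Fabp7, a fatty acid binding protein of radial glia, lay between 11870 and 12410 TPM with DMSO and between 11170 and 11750 TPM with NAT, and the astrocyte glutamate transporter gene Slc1a3 between 2098 and 2161 TPM and between 2266 and 2333 TPM. Neuronal markers were low for Rbfox3, at most 1.93 TPM in any of the 6 libraries, while Map2 lay between 611 and 653 TPM. The microglia genes Cx3cr1, C1qa and Trem2, the endothelial genes Cdh5 and Cldn5 and the haemoglobin genes Hba-a1 and Hbb-b1 were listed at 0 in all 6 libraries. Other markers of these types were not at 0 throughout. The microglia genes Aif1 and Csf1r reached 0.80 and 0.24 TPM and the endothelial gene Pecam1 0.49 TPM. The blood marker Alas2 lay between 1.1 and 3.4 TPM. A difference in the number of cells of a type cannot be told apart from a difference in RNA per cell in such bulk libraries.

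Only lower genes passed the main test across all genes, though some other fits of these data called higher genes as well. With limma on log2(TPM + 1) and Benjamini-Hochberg adjustment, 4 genes (0.0294%) were called below an adjusted p of 0.05, all lower with NAT, and 0 (0%) were called higher. Of the 4, Mir149 and Mir365-2 are weakly read microRNA rows that passed the filter through the DMSO libraries only, so a call could only be on the lower side. Before adjustment 1193 genes (8.76%) were higher and 401 (2.95%) lower at p under 0.05. The 3 NAT libraries lay wholly above the 3 DMSO libraries for 1942 genes (14.3%) and wholly below them for 663 (4.87%). A positive log2 fold change was found for 63.7% of genes, and the median over all genes was 0.03 (log2). That shift was 0.002 after quantile normalization, so list medians below are read against the median of all genes.

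Fosb, which encodes a subunit of the AP-1 transcription factor, fell with NAT. Its level was 132, 111 and 145 TPM in the DMSO libraries and 74.5, 68.6 and 78.3 TPM in the NAT libraries. No NAT library came near the lowest DMSO library, which was replicate 2. The log2 fold change was -0.79 ± 0.10 (SE, 95% interval -1.01 to -0.58; limma adjusted p 0.0203). Btg2, whose product slows proliferation and which p53 switches on, fell from 162, 147 and 163 TPM to 125, 119 and 117 TPM. Here too the groups were apart, with a log2 fold change of -0.38 ± 0.04 (95% interval -0.48 to -0.28) and an adjusted p of 0.0127. The call of Fosb was lost without DMSO replicate 1 (adjusted p 0.107), DMSO replicate 3 (0.0619), NAT replicate 1 (0.0805), NAT replicate 2 (0.114) or NAT replicate 3 (0.0765), and also with robust empirical Bayes (0.0956) or without a filter on low values (0.0778). That of Btg2 was lost without DMSO replicate 1 (0.0826), DMSO replicate 3 (0.0576), NAT replicate 2 (0.0724) or NAT replicate 3 (0.0765).

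The other called genes were the microRNA genes Mir149 (adjusted p 0.000441) and Mir365-2 (adjusted p 0.00827). Each rested on 1 recovered read per DMSO library and had 0 in the 3 NAT libraries, so no fold change is given. Neither was called when the recovered reads were tested with voom, where both had an adjusted p of 0.355.

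The promoters of Fosb and Btg2 are shown because CREB, a factor that many immediate early genes use, binds the cyclic AMP response element (CRE) TGACGTCA or its core TGACG. The windows run from 250 bases before to 50 bases after the start site in RefSeq (GRCm38.p6), on the minus strand, at chr7:19309996-19310295 for Fosb and at chr1:134079106-134079405 for Btg2. Capitals mark the core in Fosb, which begins 60 bases before the start site, and the full CRE in Btg2, which begins 166 bases before it. 
Fosb: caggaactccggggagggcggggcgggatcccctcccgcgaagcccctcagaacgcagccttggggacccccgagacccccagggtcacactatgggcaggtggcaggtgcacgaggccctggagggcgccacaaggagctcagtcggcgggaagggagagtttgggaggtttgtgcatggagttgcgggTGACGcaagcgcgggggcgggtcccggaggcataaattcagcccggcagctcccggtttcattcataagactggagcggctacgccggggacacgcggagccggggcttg
Btg2: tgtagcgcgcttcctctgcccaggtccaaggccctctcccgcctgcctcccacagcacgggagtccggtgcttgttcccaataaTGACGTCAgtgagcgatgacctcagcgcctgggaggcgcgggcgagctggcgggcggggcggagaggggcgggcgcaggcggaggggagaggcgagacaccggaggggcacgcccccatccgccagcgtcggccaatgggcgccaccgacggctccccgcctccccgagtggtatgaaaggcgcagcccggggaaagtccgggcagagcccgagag
Over the 30 RefSeq promoters of 24 immediate early genes, read on both strands, 20 (66.7%) held TGACG, against 20.8% of 32851 mouse promoters of the same length. The full CRE, which contains the core on both strands, stood in 3 (10.0%) against 1.79%, and the CArG box of serum response factor in 6 against 1.63%. The AP-1 motif TGANTCA was in 0 of the 30 and in 7.81% of all promoters. These matches describe the sequence windows only.

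The wider set of immediate early genes, which holds Fosb and Btg2, had 24 of 31 tested members negative and a median log2 fold change of -0.18. At unadjusted p under 0.05, 16 members were lower (51.6%, against 2.95% of all genes) and 1 was higher. Ier2, a small nuclear protein gene, was at 160, 136 and 164 TPM with DMSO and at 107, 116 and 123 TPM with NAT, with an adjusted p of 0.186. Egr3, a zinc finger factor gene, was at 14.4, 9.90 and 12.2 TPM and at 7.46, 7.91 and 8.17 TPM, with an adjusted p of 0.204. Klf10, a TGF-beta-induced factor gene, was the highest member at 0.18 ± 0.06, with 30.5, 26.9 and 27.8 TPM against 30.7, 32.4 and 33.9 TPM. Per library, the median over members of log2(TPM + 1) minus the DMSO mean was 0.09, -0.12 and 0.03 with DMSO and -0.27, -0.16 and -0.17 with NAT. DMSO replicate 2 was thus the lowest vehicle library for these genes. Of the feedback genes of the ERK pathway, 10 of 16 were positive (62.5%, against 63.7% of all genes), 5 lay wholly above the DMSO libraries (31.2%, against 14.3%) and 1 wholly below. They ran from -0.17 for Errfi1 to 0.12 for Spry4, with the phosphatase gene Dusp6 at 0.09 ± 0.04 and overlapping library medians.

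Among genes that missed the threshold, those of lowest p on the lower side belonged to several families. Pak3, a kinase of dendritic spines, was at 49.4, 50.1 and 48.5 TPM with DMSO and at 42.4, 41.5 and 42.1 TPM with NAT (-0.23 ± 0.04, adjusted p 0.186). Rgcc, a regulator of cell cycle kinases, was at 81.0, 78.0 and 83.2 TPM and at 66.2, 67.7 and 68.5 TPM (-0.25 ± 0.05). Amotl2, an angiomotin that holds YAP in the cytoplasm, was at 60.6, 63.1 and 68.3 TPM and at 46.9, 51.5 and 54.3 TPM (-0.33 ± 0.07). In each of these 3 genes the groups did not overlap, which the selection of the named genes required. The import receptor gene Tomm22 of the mitochondrial outer membrane (-0.17 ± 0.03) and the mitochondrial co-chaperonin gene Hspe1 (-0.16 ± 0.03), selected in the same way, moved by less.

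On the higher side, Cyp46a1, the cholesterol 24-hydroxylase of brain, was at 29.0, 27.8 and 31.7 TPM with DMSO and at 37.8, 39.5 and 37.1 TPM with NAT (0.36 ± 0.06, adjusted p 0.158). Cacng5, an auxiliary subunit of AMPA receptors, was at 57.3, 55.6 and 58.1 TPM and at 66.8, 74.2 and 68.2 TPM (0.28 ± 0.04, adjusted p 0.0973). Ptprn, a protein of dense-core vesicles, was at 46.4, 48.0 and 46.5 TPM and at 53.9, 59.6 and 59.2 TPM (0.29 ± 0.05, adjusted p 0.110). All of these had 3 NAT libraries above 3 DMSO libraries, which the selection of the named genes required. The podosome scaffold gene Sh3pxd2b was at 0.21 ± 0.04, the chaperone regulator gene Bag3 at 0.26 ± 0.05, and the ribosome-binding endoplasmic reticulum protein gene Rrbp1 at 0.17 ± 0.03. Ccdc25 was at 0.19 ± 0.04 and Fam171a1 at 0.16 ± 0.03. The row of Mir1898 stood at 15.7, 16.9 and 19.2 TPM and at 28.6, 34.4 and 28.9 TPM (0.79 ± 0.12, adjusted p 0.0973). It was weakly read, with 6, 6 and 8 reads with DMSO and 11, 14 and 11 reads with NAT.

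**Figure D1:**
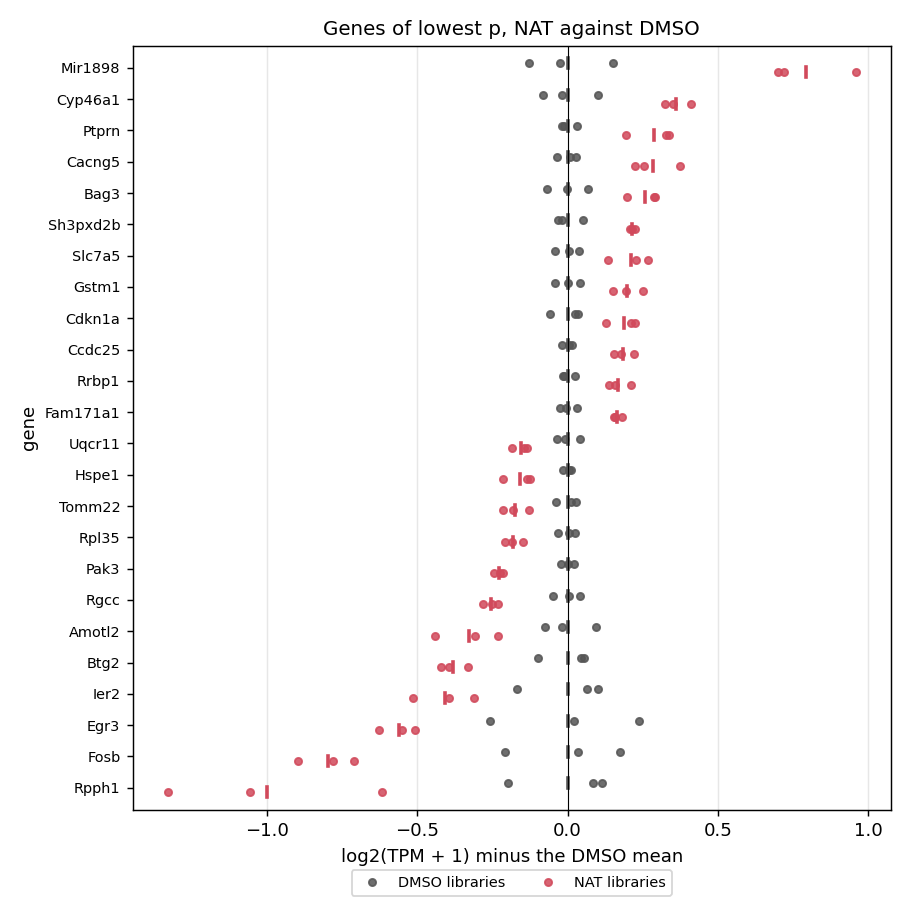
Each point is 1 library of the genes of lowest p whose groups did not overlap (mean of 5 TPM or more in either group), as log2(TPM + 1) minus the DMSO mean of that gene (x axis), with genes on the y axis and short bars for group means. Rpph1 lies farthest to the left, followed by Fosb at -0.79, and the weakly read Mir1898 farthest to the right at 0.79. Of the genes plotted only Fosb and Btg2 passed the adjusted test.

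The recovered reads, tested with voom after scaling by library totals, gave 18 genes lower (0.132%) and 18 higher (0.132%). With quantile normalization added, the split was 16 lower (0.118%) and 2 higher (0.0147%), the higher genes being Cacng5 and Ptprn. The lower genes included Fos (894, 724 and 911 TPM to 660, 688 and 713 TPM, voom adjusted p 0.0109), Jun (voom log2 fold change -0.24 ± 0.05) and Nr4a1 (-0.54 ± 0.11), all immediate early genes. They also held the Notch effector gene Hes5 (-0.35 ± 0.07), the oligodendrocyte precursor receptor gene Gpr17 (-0.35 ± 0.06), the splicing kinase gene Clk1 (-0.30 ± 0.06), the transcription factor gene Ets1 (-0.22 ± 0.05) and Enc1 (-0.21 ± 0.04), an actin-binding protein of neurons. Each of these lower genes was called under both scalings. Among the genes called higher with library totals alone were Cyp46a1, Sh3pxd2b, the astrocyte sodium pump subunit gene Atp1b2 (0.19 ± 0.04), the ribonucleotide reductase gene Rrm2 (0.27 ± 0.06), the carboxypeptidase E gene Cpe (0.16 ± 0.04) and the phosphatidylinositol transfer protein gene Pitpnm2 (0.31 ± 0.06). With any 1 library left out, Fosb, Btg2, Lars2 and Ier2 kept their voom calls in 6 of 6 cases and Pak3 in 5, while Topbp1, Ppp1r10, Ets1 and Rbl1 kept theirs in 0. Of the 18 higher genes, Cacng5 kept its call in 4 of 6 cases and no other gene in more than 3. Without NAT replicate 2 the voom test called 4 genes, and without DMSO replicate 3 it called 61.

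Lower RNAs in the voom test included several that are made by RNA polymerases I and III. The row of Rn45s, the ribosomal RNA precursor, held 21840, 21700 and 17230 TPM with DMSO and 13980, 10040 and 9583 TPM with NAT. Rmrp, the RNA of the ribonuclease that cleaves that precursor, was at 27.6, 35.7 and 29.7 TPM and at 11.8, 17.8 and 3.97 TPM. Rpph1, the RNA of ribonuclease P, was at 36.0, 35.2 and 28.8 TPM and at 12.6, 21.3 and 15.4 TPM. Lars2, a mitochondrial leucine tRNA synthetase gene, ran alongside at 2652, 2330 and 1905 TPM and at 1542, 1230 and 1259 TPM. Rn45s, Rmrp and Rpph1 were not called by voom with quantile normalization, whereas Lars2 was. None of the 4 passed the limma test, where Rpph1 was closest with an adjusted p of 0.0973. How the libraries were depleted or selected for such RNAs, and how reads matching several places were counted, is not given in the sources used here, so these levels are uncertain.

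Cytosolic ribosomal protein genes, which encode the parts of the large and small ribosomal subunits, were lower nearly as a block. Of 82 tested, 78 had a negative log2 fold change and the median was -0.08, against 0.03 for all genes. At unadjusted p under 0.05, 34 were lower (41.5%, against 2.95% of all genes) and 0 higher, while 0 passed the adjusted test. All NAT libraries lay below all DMSO libraries for 38 of them (46.3%, against 4.87%). Per library the median over members was 0.01, 0.01 and -0.02 with DMSO and -0.06, -0.06 and -0.11 with NAT. The groups of libraries did not overlap, and NAT replicate 3 was the lowest.

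Both subunits shared this. Of 47 large subunit genes 44 were negative, with a median of -0.08, and of 33 small subunit genes 32 were negative, with a median of -0.10. Rpl35 of the large subunit had the lowest p, at 470, 463 and 451 TPM with DMSO and at 405, 399 and 416 TPM with NAT (-0.18 ± 0.03, 95% interval -0.25 to -0.12, limma adjusted p 0.115). Rpl23a was at 850, 812 and 838 TPM and at 780, 756 and 725 TPM (-0.15 ± 0.04). Rps18 of the small subunit was at 877, 871 and 805 TPM and at 770, 765 and 749 TPM (-0.16 ± 0.04). The highest member was Rps4y2 at 0.07 ± 0.08, a weakly read row at 16.9 to 21.1 TPM. Many ribosomal protein genes have near-identical processed copies in the genome, and how reads matching both were counted is not given in the sources used here, so single values are uncertain.

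Many ribosomal protein transcripts begin with a terminal oligopyrimidine (TOP) tract, a C at the first base followed by a run of C and T, through which mTOR signalling sets their translation. The windows of Rpl35 (chr2:39005082-39005381) and Rps18 (chr17:33955616-33955915), again RefSeq GRCm38.p6 and the minus strand, are shown with that tract in capitals, 11 bases long in Rpl35 and 9 in Rps18.
Rpl35: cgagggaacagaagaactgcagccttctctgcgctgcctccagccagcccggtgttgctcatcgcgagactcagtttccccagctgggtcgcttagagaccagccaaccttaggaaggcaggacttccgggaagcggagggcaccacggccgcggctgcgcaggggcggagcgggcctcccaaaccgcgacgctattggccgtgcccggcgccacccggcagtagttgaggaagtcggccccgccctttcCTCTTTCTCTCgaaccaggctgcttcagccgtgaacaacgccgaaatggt
Rps18: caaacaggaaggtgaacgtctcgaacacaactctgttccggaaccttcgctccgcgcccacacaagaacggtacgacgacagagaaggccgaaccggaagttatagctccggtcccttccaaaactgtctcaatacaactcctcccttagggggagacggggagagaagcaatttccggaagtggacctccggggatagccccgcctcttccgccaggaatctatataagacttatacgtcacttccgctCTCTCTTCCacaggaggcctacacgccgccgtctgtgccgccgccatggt
A tract of a first C and at least 4 further C or T was found at the annotated start of 14 of 71 promoters of 60 ribosomal protein genes (19.7%), against 2.51% of all promoters. The annotated start decides whether the tract is found, so its absence from a window says only that these letters do not stand at that base.

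Transcript length moved with the difference between the groups, with medians that rose in order over the classes from 500 bases upwards. The class under 500 bases stood out of that order, with a median length of 95 bases and a median level of 5.21 TPM. The median log2 fold change was 0.07 for 297 genes with a longest transcript under 500 bases, -0.02 for 560 genes of 500 to under 1000 bases, -0.0008 for 2137 genes of 1000 to under 2000 bases, 0.03 for 5371 genes of 2000 to under 4000 bases and 0.05 for 5127 genes of 4000 bases or more. Ribosomal protein genes are short. Those with a longest transcript of 1000 bases or more (46 genes) had a median of -0.08, and those under 1000 bases (36 genes) the same. The longest transcript need not be the one behind the TPM values, so this split may not part short from long transcripts. Other abundant short genes, neither ribosomal protein nor oxidative phosphorylation, were 105 with under 1000 bases and at least 100 TPM. They had a median of -0.03, and 15.2% lay wholly lower with NAT, against 4.87% of all genes. In the matching class of 1000 bases or more, the median was 0.03 and 6.07% lay wholly lower. With each library's trends with GC content and length removed, the median of the ribosomal protein genes was -0.09 against 0.0004 for all genes, and over 25 other settings it ranged from -0.12 to -0.06.

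**Figure D2:**
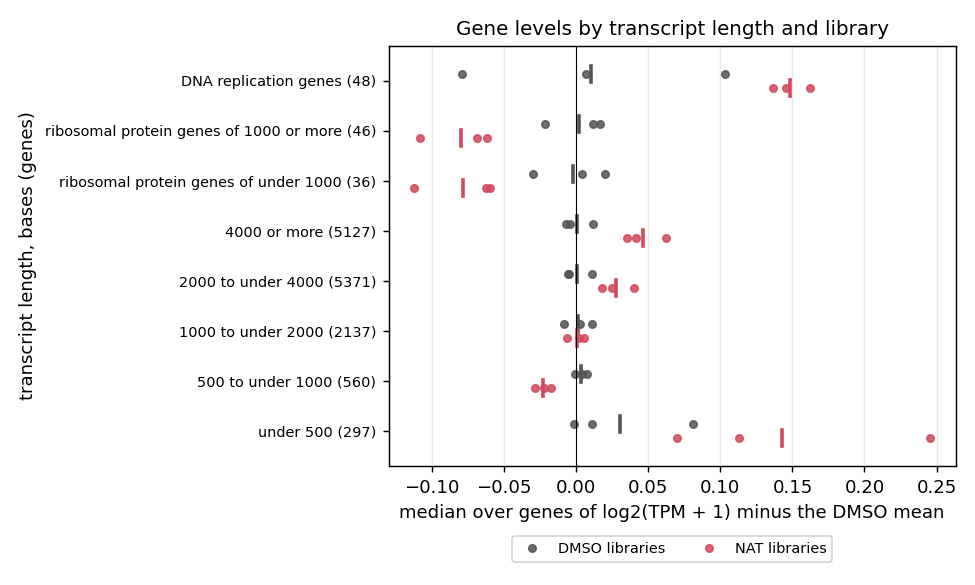
Each point is 1 library and gives the median over a class of genes of log2(TPM + 1) minus the DMSO mean (x axis), for 5 classes of transcript length, ribosomal protein genes split at 1000 bases, and DNA replication genes (y axis), with short bars for group means. Both length classes of ribosomal protein genes lie to the left at about -0.08 with NAT, beyond the length class of 500 to under 1000 bases at -0.02.

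Other parts of protein production and turnover did not show the same size of difference. Mitochondrial ribosomal protein genes had 41 of 75 members positive and a median of 0.01, which turned negative in 14 of 25 other settings (-0.02 after quantile normalization). Relative to the median of all genes it was -0.02 and negative in 26 of 26 settings, the reported one included. Of these genes 7 were wholly lower (9.33%, against 4.87%) and 2 wholly higher (2.67%, against 14.3%). Mrps35 (-0.20 ± 0.06) and Mrpl33 (-0.18 ± 0.05) had the lowest p among them. Translation factor genes had a median of -0.01, with Eif3h, a subunit of initiation factor 3, at -0.11 ± 0.04, and 24 of 42 negative. Ribosome biogenesis genes, which act on the precursor RNA, had 23 of 37 positive and a median of 0.01 that turned negative in 10 of 25 other settings. Proteasome subunit genes had a median of -0.01, with 27 of 45 negative and Psma3 of the catalytic core at -0.09 ± 0.04 beside the activator gene Psme4 at 0.10 ± 0.04. The medians of translation factor, ribosome biogenesis and proteasome genes also lay below that of all genes in 26 of 26 settings.

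Oxidative phosphorylation genes, whose products carry electrons and make ATP in mitochondria, were slightly lower. Of 70 tested, 55 were negative, with a median of -0.04, 9 wholly lower (12.9%, against 4.87%) and 0 wholly higher. All 10 subunits of complex IV were negative, from -0.07 for Cox6a1 to -0.01 for Cox5a, and 29 of 36 of complex I. In complexes III and V, 6 of 9 and 10 of 15 were negative. The library medians overlapped between the groups in complexes III, IV and V but not in complex I. Uqcr11 of complex III was at 454, 470 and 444 TPM with DMSO and at 401, 412 and 415 TPM with NAT (-0.15 ± 0.03, limma adjusted p 0.204), with groups apart. Genes of the citric acid cycle, in the same compartment, had 15 of 23 positive and a median of 0.01, negative in 6 of 25 other settings, and Ogdh, a subunit of the 2-oxoglutarate dehydrogenase, was at 0.18 ± 0.04. The median of this cycle lay below that of all genes in 25 of 26 settings, the reported one included. Median transcript length was 1025 bases for the oxidative phosphorylation genes and 1076 bases for ribosomal protein genes, and the part of length in either difference was not tested.

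DNA replication genes leaned higher with NAT. All 48 tested had a positive log2 fold change, with a median of 0.16, 21 were higher at unadjusted p under 0.05 (43.8%, against 8.76% of all genes), 17 were wholly higher (35.4%, against 14.3%) and 0 passed the adjusted test. Lig1, the ligase that joins Okazaki fragments, was at 54.8, 51.3 and 50.7 TPM with DMSO and at 60.2, 59.2 and 61.5 TPM with NAT (0.20 ± 0.04, limma adjusted p 0.204). Ccne1, the cyclin of S phase entry, was at 16.3, 17.0 and 16 TPM and at 20.6, 20.4 and 18.9 TPM (0.27 ± 0.06). Rrm2, the regulated subunit of ribonucleotide reductase, was at 158, 146 and 128 TPM and at 176, 167 and 177 TPM (0.27 ± 0.07). The groups did not overlap in these 3 genes. The range ran from 0.01 for E2f2 to 0.29 for Chaf1b, a chromatin assembly factor gene, and the 7 Mcm genes of the replicative helicase lay between 0.09 for Mcm7 and 0.22 for Mcm3.

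The vehicle libraries themselves differed in these genes. Per library the median over members was 0.10, 0.01 and -0.08 with DMSO, in replicates 1, 2 and 3, and 0.15, 0.14 and 0.16 with NAT. Leaving out DMSO replicate 1 gave a list median of 0.21, and leaving out DMSO replicate 3 one of 0.10. The E2F motif, searched as TTTGGCGC or TTTCCCGC on both strands, was in 13 of 46 promoters of 39 replication genes (28.3%), against 1.56% of all promoters.

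Mitosis and spindle genes followed the same order among vehicle libraries but not the same separation. There were 40 of 44 positive with a median of 0.07, 7 were higher at unadjusted p under 0.05 (15.9%, against 8.76%) and 6 wholly higher (13.6%, against 14.3%). The library medians were 0.09, -0.001 and -0.09 with DMSO and 0.10, 0.04 and 0.08 with NAT, so the groups overlapped. Without DMSO replicate 3 the list median was 0.02, below the 0.03 of all genes in that fit. Foxm1, the transcription factor of mitotic genes, was at 41.7, 41.9 and 41.7 TPM and at 46.1, 45.8 and 47.8 TPM (0.15 ± 0.04). Mki67, a marker of cycling cells, was at 196, 174 and 162 TPM and at 191, 177 and 184 TPM, with groups that overlapped (0.06 ± 0.07, adjusted p 0.767).

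Inhibitors of the cell cycle were mixed, and 0 passed the adjusted test. Cdkn1a, the p53-induced inhibitor p21, was at 181, 193 and 192 TPM with DMSO and at 206, 219 and 221 TPM with NAT (0.19 ± 0.04, adjusted p 0.204). The pocket protein genes Rbl1 (0.31 ± 0.08) and Rbl2 (0.17 ± 0.05), which repress E2F, had groups apart as well. Across 17 inhibitor and cyclin D genes 11 were positive (64.7%, against 63.7%), with a median of 0.05, 5 wholly higher (29.4%, against 14.3%) and 2 wholly lower (11.8%, against 4.87%), and Cdkn2a was the lowest at -0.11 ± 0.05. Targets of p53 had 19 of 27 positive and a median of 0.05, with the death receptor gene Tnfrsf10b highest at 0.33 ± 0.10, while Btg2, a p53 target kept under the immediate early genes, was among the 4 called lower. The Bcl2 family and caspases had a median of 0.01, negative in 7 of 25 other settings, with Apaf1 at 0.12 ± 0.05 and Bcl2 at -0.16 ± 0.08. Their median lay below that of all genes in 25 of 26 settings, the reported one included.

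**Figure D3:**
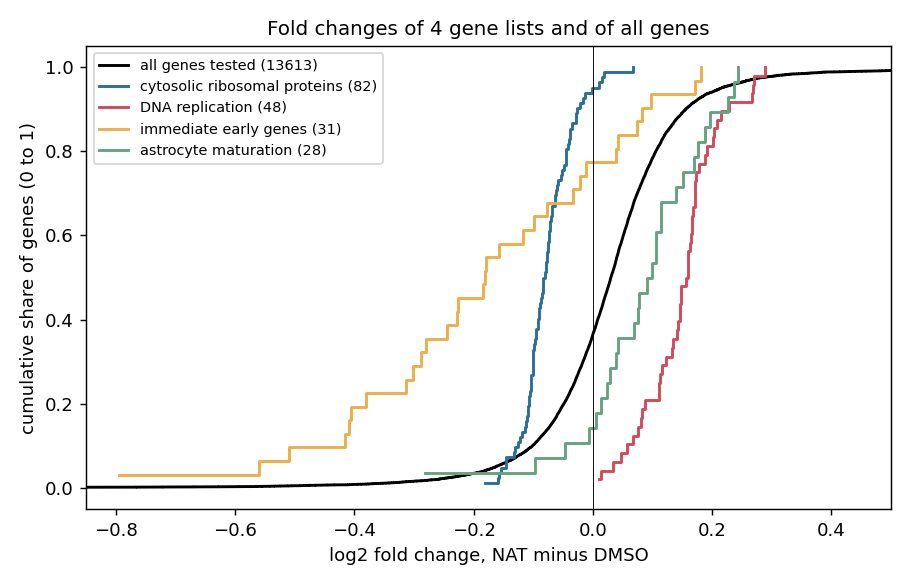
Cumulative share of genes (y axis, 0 to 1) against log2 fold change of NAT minus DMSO (x axis) for all 13613 genes tested and for 4 gene lists. The ribosomal protein curve is steep and lies to the left of all genes with a median of -0.08, and the DNA replication curve lies wholly to the right of 0.

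Astrocyte maturation genes stood higher. Of 28 tested, 24 were positive with a median of 0.10, and 14 of these were wholly higher, against 14.3% of all genes. Gfap, the intermediate filament of astrocytes, was at 787, 768 and 909 TPM with DMSO and at 931, 1031 and 939 TPM with NAT (0.24 ± 0.07, 95% interval 0.08 to 0.40, limma adjusted p 0.279). Hepacam, an adhesion protein of astrocyte endfeet, was at 340, 361 and 378 TPM and at 399, 421 and 409 TPM (0.19 ± 0.04). Atp1b2 was at 1208, 1245 and 1298 TPM and at 1394, 1477 and 1429 TPM, and the potassium channel gene Kcnj10 was at 0.11 ± 0.03. DMSO replicate 3 was the vehicle library nearest to NAT in Gfap, Hepacam and Atp1b2. Slc7a10, a transporter of D-serine, was the lowest of the 4 negative members at -0.28 ± 0.10. The library medians were -0.04, -0.02 and 0.06 with DMSO and 0.08, 0.11 and 0.10 with NAT.

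Neurogenic factors and oligodendrocyte genes had more negative than positive members, but their library medians overlapped between the groups. Of 20 neurogenic factors 17 were negative, with a median of -0.07 and 6 wholly lower (30.0%, against 4.87%). Among them the zinc finger factor gene Myt1 was at -0.12 ± 0.05. Dlx2 was the lowest at -0.37 ± 0.18, from under 3.31 TPM in every library. The library medians of the neurogenic factors were -0.05, 0.004 and 0.03 with DMSO and -0.09, -0.05 and -0.07 with NAT. Dcx, a marker of migrating neuroblasts, was at 27.7, 25.9 and 27.0 TPM and at 27.4, 23.9 and 25 TPM, with overlapping groups (adjusted p 0.729). Oligodendrocyte genes had 16 of 25 negative and a median of -0.04, with 6 wholly lower (24.0%, against 4.87%) and library medians of -0.03, 0.004 and 0.03 with DMSO and 0.02, -0.03 and -0.11 with NAT. Sox10, their specifying factor, was at 54.6, 62.6 and 63.0 TPM and at 50.6, 52.5 and 48.8 TPM (-0.24 ± 0.06, adjusted p 0.225). Olig2 lay at 818, 812 and 842 TPM and at 771, 774 and 798 TPM (-0.08 ± 0.04), with groups apart. The Sox factors had 8 of 12 negative, from -0.10 for Sox4 to 0.08 for Sox1, with overlapping library medians.

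Signalling pathways differed in how evenly their members stood. Hippo pathway genes had 16 of 19 positive and a median of 0.10, with the coactivator gene Yap1 at 0.14 ± 0.04 and its partner Tead1 at 0.14 ± 0.04, while Amotl2 was at -0.33 as given above. BMP, Smad and Id genes had 13 of 19 positive, a median of 0.06 and library medians of 0.003, -0.02 and 0.01 with DMSO against 0.06, 0.06 and 0.05 with NAT. Id1, an inhibitor of proneural factors, was at 96.5, 88.0 and 102 TPM and at 112, 103 and 114 TPM (0.20 ± 0.07), and Smad9 was at 0.31 ± 0.09. Notch pathway genes were split, 10 of 19 positive, with the effector genes Hes5 (-0.34 ± 0.07) and Hes1 (-0.25 ± 0.06) and the ligand gene Dll3 (-0.23 ± 0.07) wholly lower and Notch3 highest at 0.16 ± 0.06. The Notch median of 0.01 turned negative in 14 of 25 other settings. Relative to the median of all genes it was -0.02 and negative in 26 of 26 settings, the reported one included. Wnt genes had a median of 0.03, that of all genes, with the antagonist gene Sfrp1 at -0.24 ± 0.08 and the effector gene Tcf7l2 at 0.15 ± 0.05, and Hedgehog genes had a median of 0.04 with Gas1 at -0.16 ± 0.06.

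**Figure D4:**
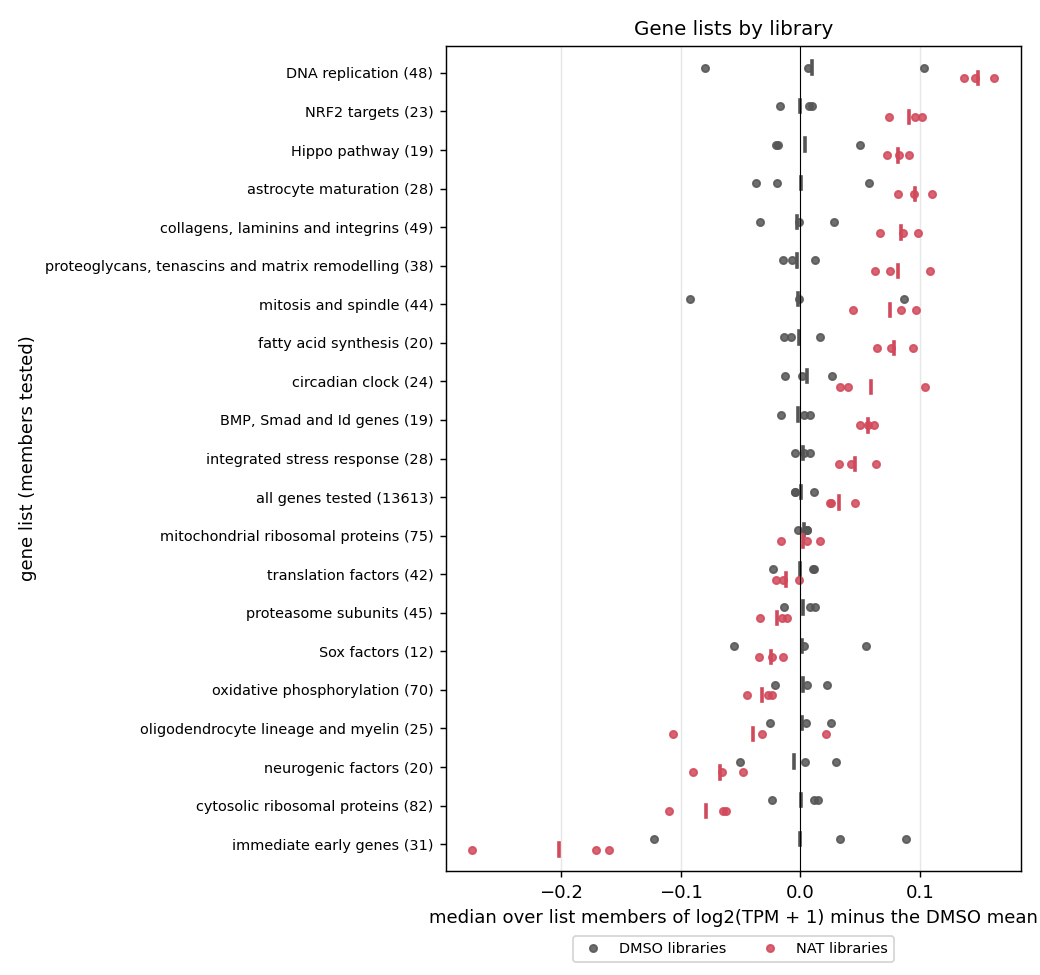
Each point is 1 library and gives the median over the members of a gene list of log2(TPM + 1) minus the DMSO mean (x axis), with the number of members tested beside each list (y axis) and short bars for group means. DNA replication genes stand highest with NAT and immediate early genes lowest, and the 3 DMSO libraries are spread widest in the immediate early, mitosis and replication lists.

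Matrix genes formed another higher group. Proteoglycans, tenascins and matrix remodelling genes had 30 of 38 positive, a median of 0.07, 14 wholly higher (36.8%, against 14.3%) and 0 wholly lower. Ncan, the brain proteoglycan neurocan, was at 1568, 1585 and 1629 TPM with DMSO and at 1743, 1781 and 1751 TPM with NAT (0.14 ± 0.04, adjusted p 0.258). Sulf2, a sulfatase that trims heparan sulfate, was at 0.15 ± 0.04 and the protease gene Adamts9 at 0.20 ± 0.05. Collagens, laminins and integrins had 40 of 49 positive and a median of 0.09, with 13 wholly higher (26.5%), among them the integrin gene Itgb5 at 0.14 ± 0.04 and the fibronectin gene Fn1 at 0.21 ± 0.08. The summed level of mural and fibroblast markers was 264 to 281 TPM with DMSO and 278 to 296 TPM with NAT. That sum held Fbln2, with means of 99.8 and 105 TPM, and Notch3, also in the Notch list, with means of 78.3 and 87.5 TPM. Col1a1, Pdgfrb and Rgs5 reached at most 0.40, 0.44 and 1.09 TPM in any library. Axon guidance genes had 37 of 60 positive and a median of 0.04, 0.003 after quantile normalization, with the semaphorin receptor genes Plxnd1 at 0.27 ± 0.07 and Plxnb2 at 0.13 ± 0.04 and the ephrin gene Efna2 at -0.23 ± 0.07. Cadherins and protocadherins had a median of 0.04, with 9 of 47 wholly higher (19.1%).

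Among metabolic genes, targets of NRF2, the factor that answers oxidative stress, had 19 of 23 positive and a median of 0.11, with 12 wholly higher (52.2%, against 14.3%). Gstm1, a glutathione transferase, was at 371, 360 and 350 TPM with DMSO and at 400, 429 and 412 TPM with NAT (0.20 ± 0.04, adjusted p 0.186). Taldo1, a pentose phosphate enzyme in that list, was wholly lower at -0.06 ± 0.04. Fatty acid synthesis genes had 18 of 20 positive, a median of 0.06 and 9 wholly higher (45.0%), with the malic enzyme gene Me1 at 110, 114 and 108 TPM and at 124, 132 and 136 TPM (0.24 ± 0.05). Sterol synthesis genes had 19 of 24 positive but library medians that overlapped, at 0.04, -0.01 and -0.06 with DMSO and 0.04, 0.02 and 0.06 with NAT. Cholesterol efflux genes had 12 of 19 positive and 7 wholly higher (36.8%), led by Cyp46a1 and followed by Npc1, which exports cholesterol from lysosomes (0.13 ± 0.03), and Soat1, which esterifies it (0.13 ± 0.04). Fatty acid oxidation genes had a median of 0.02, with Cpt1a, the gate of mitochondrial uptake, at 114, 118 and 116 TPM and at 130, 130 and 127 TPM (0.15 ± 0.04).

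Genes of NAD metabolism, of interest because P7C3-A20 is reported to act on NAMPT, had 14 of 22 positive and a median of 0.02 that turned negative in 5 of 25 other settings. The NAD salvage enzyme gene Nampt was at 18.6, 18.5 and 19.8 TPM with DMSO and at 20.7, 19.3 and 22.9 TPM with NAT. These groups overlapped, with a log2 fold change of 0.13 ± 0.07 (95% interval -0.01 to 0.28). Nmnat3, which makes NAD in mitochondria, was at 0.21 ± 0.09 with groups apart. Glycolysis and hypoxia genes had a median of 0.01, negative in 11 of 25 other settings and below that of all genes in 26 of 26. Ankrd37, a hypoxia target, was their highest at 1.92, 1.29 and 1.32 TPM and at 3.58, 2.70 and 2.66 TPM (0.67 ± 0.15, adjusted p 0.204), and Pfkm, the phosphofructokinase of muscle and brain, was at 0.12 ± 0.03.

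Stress and quality control genes showed mixed members. In the integrated stress response list 18 of 28 were positive (64.3%, against 63.7% of all genes), 9 wholly higher (32.1%, against 14.3%) and 4 wholly lower (14.3%, against 4.87%). Slc7a5, the large neutral amino acid transporter, was at 160, 165 and 170 TPM with DMSO and at 181, 199 and 193 TPM with NAT (0.21 ± 0.04, adjusted p 0.204), and its partner chain gene Slc3a2 was at 156, 148 and 157 TPM and at 167, 178 and 172 TPM (0.17 ± 0.04). Ddit4, an inhibitor of mTORC1, was wholly lower at 157, 168 and 169 TPM and at 150, 152 and 142 TPM (-0.15 ± 0.04). Endoplasmic reticulum folding genes had 19 of 25 positive, a median of 0.04 and 9 wholly higher (36.0%, against 14.3%), including calreticulin, Calr, at 0.11 ± 0.04. Heat shock chaperone genes had 14 of 23 positive, from -0.16 for Hspe1 to 0.26 for Bag3, and their median of 0.02 turned negative in 4 of 25 other settings. Lysosome and autophagy genes had 30 of 44 positive, with Psap, the saposin precursor gene, at 0.14 ± 0.04.

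Solute carriers, channels and receptors lay near the background of all genes. Of 230 solute carrier genes 156 were positive (67.8%, against 63.7%), with a median of 0.04 and 43 wholly higher (18.7%, against 14.3%), among them the creatine transporter gene Slc6a8 at 0.16 ± 0.04. Potassium channel genes had a median of 0.03 and 7 of 52 wholly higher (13.5%), with Kcnd3 at 0.13 ± 0.03, Kcnc1 at 0.15 ± 0.04 and Kcnk1 at -0.33 ± 0.08. Glutamate and GABA receptor genes had 22 of 32 positive and a median of 0.04, led by Cacng5, with the kainate receptor gene Grik3 lowest at -0.16 ± 0.06. Sodium and calcium channel genes had a median of 0.02, negative in 6 of 25 other settings. Synapse genes had 26 of 46 positive and a median of 0.02, negative in 5 of 25 other settings, with the postsynaptic scaffold gene Dlg4 at 0.17 ± 0.05 and the kinase gene Camk2b at 0.16 ± 0.03, both with groups apart.

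RNA processing and transcription factor families differed from one another. SR proteins, hnRNPs and Clk kinases had 28 of 38 positive with a median of 0.04, while Clk1, the kinase that phosphorylates SR proteins, was at 75.6, 77.0 and 86.4 TPM with DMSO and at 61.5, 63.2 and 70.9 TPM with NAT (-0.29 ± 0.06). The 323 tested Zfp zinc finger genes had a median of -0.01 and 46.7% positive, against 63.7% of all genes, and 32 were wholly lower (9.91%, against 4.87%), with Zfp354c at -0.16 ± 0.04. Circadian clock genes had 17 of 24 positive and a median of 0.06, with Hlf at 38.2, 39.2 and 38.1 TPM and at 45.6, 43.5 and 44.6 TPM (0.20 ± 0.06), Cry1 at 0.22 ± 0.06 and Rora at 0.27 ± 0.10. Small RNA genes were weakly read: of 91 small nucleolar RNA genes 63 had under 10 reads in every library, and so did 119 of 143 microRNA genes. The spread of their fold changes, from -2.66 for Snord66 to 2.54 for Snord99, rests on such counts.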

How the data were processed

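RNA from neural stem cells (3 DMSO and 3 NAT libraries) was sequenced after an Illumina TruSeq RNA preparation, whose strand handling is not given in the sources used here. The deposited values are TPM, which the authors scaled to the same total in each library. Bowtie 0.12.2 and, without a stated role, the builds mm8 and mm9 appear in the submitters' processing notes. For the counter and its annotation, no name is given in the sources used here. Reads of overlapping genes cannot be told apart. The labels call the libraries biological replicates without saying from what they were drawn, so each p-value reflects only how far these libraries vary, which may be technical. The 27 gene names that had turned into dates were left as they stood.

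Whole reads were recovered from the steps of the TPM values for all 19302 genes with any value (100%, tolerance 0.001), and on simulated data for 96.3% of 18741 genes exactly. Genes with at least 1 TPM in at least 3 of the 6 libraries were fitted with limma-trend 3.58.1 (R 4.3.3) on log2(TPM + 1), all 9 libraries in 1 fit with 6 residual degrees of freedom, two-sided, with Benjamini-Hochberg adjustment over 13613 genes. An exact permutation of 3 against 3 libraries cannot give a p below 0.1. In simulated data for this comparison over 13463 genes, the fit called 37.3% of 1.25-fold, 89.6% of 1.5-fold and 98.5% of 2-fold changes. The changed genes (67, 67 and 66) were all well read. Every gene was given the same extra spread between libraries, and no shift was shared by the genes of a library. These shares may therefore be too high for the real libraries. The recovered reads were also tested with limma's voom, scaled by library totals or quantile normalized. Other steps used pandas 2.3.3, numpy 2.4.6 and matplotlib 3.10.9 under Python 3.11.15.

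The members and the 65 gene lists were chosen with earlier results of these data known. Lists are described by counts and medians, without a test, where at least 5 members were tested, and no coordinates of the files are used. Named genes were the called genes, 12 per direction of lowest p whose groups did not overlap (mean of 5 TPM or more in either group), up to 3 of lowest p per list, the extremes of each range given, and Nampt, Gfap, Dcx, Sox10, Olig2, Fabp7 and Mki67. Slc1a3, Map2, Rbfox3 and further genes called by voom were added to these with their values known. Some genes that the rule names are not reported here. The GC content and length came from the longest GENCODE vM21 transcript (GRCm38). Alternatives, beside those above, were a replicate block, quantile normalization, robust empirical Bayes, other filters and pseudocounts, each library left out, and removal of the trends with GC content and length.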

Additional observations from a re-analysis of the deposited data

How the results depend on the processing

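All 4 called genes were called under a replicate block and with quantile normalization. Without a filter on low values 4 genes were called, but not Fosb, and robust empirical Bayes (3 genes) lost Fosb too, while a pseudocount of 0.1 (3 genes) lost Mir365-2. A minimum of 10 recovered reads gave 3 lower and 1 higher (Mir1898), with Mir149 and Mir365-2 not tested. Mir1898 reached 10 reads only in the NAT libraries, so under that filter its call could only be on the higher side. The count was 2 with a minimum of 5 TPM, 0 with a minimum log2 fold change of 1 (7 at unadjusted p under 0.05), 8 with the 6 libraries alone, and 9 with the GC trend removed, or 6 with length removed too. Leaving out 1 library gave 1 (without NAT replicate 3) to 11 (without DMSO replicate 2). Genes called higher were 3 of the 8 with the 6 libraries alone and 3 of the 11 without DMSO replicate 2. Without DMSO replicate 1, DMSO replicate 3 or NAT replicate 1, limma called 1 gene higher in each case. With voom on library totals the count was 36, or 18 with quantile normalization, and leaving out DMSO replicates 1, 2 and 3 or NAT replicates 1, 2 and 3 in turn gave 13, 17, 61, 25, 4 and 10. Settings that remove length with GC content, ask for 10 reads, or use voom with either scaling were chosen after seeing the data. The planned voom with TMM scaling is not reported, because TMM belongs to a tool kept for deposited counts, and library totals replaced it after its result had been seen. The cause of these moves was not tested.

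Pairing by replicate number was not seen in the correlations between libraries. Deviations of same-numbered DMSO and NAT libraries correlated at 0.06, -0.04 and 0.06 across 11347 genes, and DMSO replicate 2 and NAT replicate 1 correlated more, at 0.09. With the replicate block voom called 133 genes, 100 higher and 33 lower, against 36 without it. Whether same-numbered libraries belonged together is thus not settled by these values.

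The medians of the immediate early, cytosolic ribosomal protein, DNA replication, oxidative phosphorylation, NRF2 target, astrocyte and matrix lists kept their sign in all 25 other settings run, also relative to the median of all genes. The mitosis median relative to all genes kept its sign in 24 of 26 settings, the reported one included, and was -0.02 at the lowest. With 12028821 reads in the shallowest library, differences in genes of under 10 reads were not resolved.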

Other observations

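Some smaller families were not covered above. Growth factor binding proteins of the insulin-like system stood apart from each other: Igfbp5 was at 107, 119 and 118 TPM with DMSO and at 125, 139 and 129 TPM with NAT (log2 fold change 0.19 ± 0.05), Igfbp3 was at 0.14 ± 0.05, and the weakly read Igfbp7 at -0.30 ± 0.15. None passed the limma test, and the list had 7 of 12 positive. Microtubule genes had 19 of 28 positive and 9 wholly higher (32.1%, against 14.3%), with Map4 at 138, 138 and 141 TPM and at 150, 154 and 152 TPM (0.12 ± 0.03), while Stmn3, a stathmin that destabilizes microtubules, was at -0.17 ± 0.06. In the actin list the median of 0.01 turned negative in 8 of 25 other settings, with Ezr at 0.14 ± 0.04 and Tmsb4x, which sequesters actin monomers, at 8152, 7772 and 7904 TPM and at 7631, 7357 and 7379 TPM (-0.09 ± 0.04). The actin median lay below that of all genes in 26 of 26 settings, the reported one included.

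Imprinted genes were split, with 12 of 21 positive. Mest was at 129, 126 and 128 TPM with DMSO and at 144, 139 and 143 TPM with NAT (0.16 ± 0.03), Peg10 at 0.19 ± 0.08 and Grb10 at -0.15 ± 0.06, each with groups apart. Chromatin regulators had 43 of 60 positive but a median of 0.03, that of all genes, with the maintenance DNA methyltransferase gene Dnmt1 at 69.4, 65.6 and 66 TPM and at 74.7, 74.7 and 73.0 TPM (0.14 ± 0.04). Motile cilia genes summed to 90.4 to 96.1 TPM with DMSO and 100 to 101 TPM with NAT, and their factor Foxj1 was at 16.2, 16.9 and 18.4 TPM and at 18.5, 20.6 and 19.98 TPM (0.19 ± 0.07). Interferon genes had 22 of 33 positive and a median of 0.04. The nuclear RNA Malat1 varied within both groups, from 2134 to 3333 TPM with DMSO and from 2823 to 3986 TPM with NAT, so the groups overlapped (0.37 ± 0.15).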
